A study of Mus musculus with 16 samples.

Results

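The response of mouse embryo fibroblasts (MEFs) to 4 h of TGFβ was measured by comparing 4 libraries taken at 4 h with 4 libraries of the same cells at 0 h, which are 8 of the 16 libraries of the study. Each line gave 1 pair. The sim pair came from Ark-/- cells that had received rvCAG-Arksim, a retrovirus carrying Arkadia with a mutated SUMO-interacting motif. The rvWT pair came from Ark-/- cells that had received rvCAG-ArkWT, a retrovirus carrying wild-type Arkadia. The WT pair came from Ark+/+ cells and the null pair from Ark-/- cells without a retrovirus. TGFβ was given at 2.5 ng/ml to cells at low density in serum-containing medium, and 0 h cells had none. The sim and rvWT pairs belong to library set B and the WT and null pairs to set A. Arkadia is the ubiquitin ligase encoded by Rnf111. Because there was 1 library for each line and time, the 4 pairs serve as the repeats. The p-values therefore reflect scatter among libraries. This scatter holds differences of response between lines together with those of culture or technique, which the labels do not separate. Sim and rvWT cells share a set and are both Ark-/- in origin, so the pairs are not fully independent. Across genes, their 4 h differences had a Spearman correlation of 0.726, against 0.475 to 0.566 for the other combinations of pairs. By Pearson r they did not stand apart, at 0.357 against 0.26 to 0.393. Cells with an empty retrovirus were not analysed here, so the retrovirus, the library set and the restored Arkadia cannot be told apart. WT and null cells are separate lines, so line and genotype cannot be told apart either. Another 2 null libraries, of set B at 0 and 1 h, entered the fit, as did the other libraries at 1 h and 16 h. They bear on the spread and also move the fitted 4 h difference. For Timeless it was -2.06 in the fit and -2.10 with the 8 libraries at 0 h and 4 h alone.

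TGFβ binds a pair of receptor kinases, TGFBR2 and TGFBR1, which phosphorylate SMAD2 and SMAD3. These join SMAD4, enter the nucleus and act on target genes together with other factors such as AP-1. In fibroblasts the pathway is known for raising matrix, adhesion and contractile genes and for inducing its own inhibitors, and Arkadia is known to act on it by degrading the repressors SKI and SnoN.

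The labelled cell type was checked against markers. Vim, the intermediate filament of mesenchymal cells, was at 1551 FPKM in sim, 1847 in rvWT, 1258 in WT and 1406 in null cells at 4 h, against 1661 in sim, 1906 in rvWT, 1203 in WT and 1427 in null cells at 0 h. The 10 measured of 12 fibroblast markers summed to 2103 to 8335 FPKM at 4 h and 1824 to 8324 FPKM at 0 h. WT cells were at the bottom of both ranges, with 7.32 FPKM of the collagen Col3a1 at 4 h and 9.05 FPKM at 0 h and with the matrix proteoglycan Lum listed at 0 at 4 h. WT cells also held 327 FPKM at 4 h and 519 FPKM at 0 h of Krt19, a keratin of simple epithelia. In the other lines Krt19 was at most 4.91 FPKM at these times. The other measured epithelial markers were not high in WT cells. Krt8 stood there at 1.17 FPKM at 4 h and 0.586 FPKM at 0 h, below every other line at both times. Krt18 stood there at 0.528 FPKM at 4 h and 1.08 FPKM at 0 h. The sum of 2 endothelial markers, Kdr and Tek, stayed at or below 6.30 FPKM, and that of 3 haematopoietic markers, Cd68, Csf1r and Lyz2, at or below 4.79 FPKM. The 3 neural markers Tubb3, Ncam1 and Nes were higher, with sums of 27.84 to 64.38 FPKM at 4 h and 17.08 to 46.85 FPKM at 0 h. Epcam, Cdh1, Pecam1, Cdh5 and Ptprc, the defining markers of epithelial, endothelial and haematopoietic cells, were not analysed here.

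FPKM, the authors' unit, scales fragments to transcript length and to mapped fragments. The differences below are on the scale of log2(FPKM + 1), which understates the change of genes at low FPKM. Of 11045 genes with a mean of at least 1 FPKM, 4307 passed at a limma adjusted p below 0.05 (39% of genes tested). Of these, 1317 rose at 4 h (11.9%) and 2990 fell (27.1%). The split depends on scaling: with median-ratio scaling 1900 rose and 1817 fell, and with quantile normalization 1667 rose and 1997 fell. Most changes were small, with a median of 0.39 among genes that rose and -0.32 among genes that fell. Only 120 rose by at least 1 (1.09%) and 46 fell by at least 1 (0.416%). All 4 pairs were higher at 4 h for 1194 of the 1317 genes that rose and lower for 2800 of the 2990 that fell, where 14.9% and 35.5% of all genes tested were higher or lower in all 4 pairs. The 4 h and 0 h libraries did not overlap in 284 genes that were higher at 4 h (2.57% of genes tested) and in 380 that were lower (3.44%). The number of genes that passed moved most with set B: it was 2239 without the rvWT series and 2031 without the sim series, 4266 in set B alone and 16 in set A alone.

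Rnf111 itself did not pass between 4 h and 0 h. It stood at 61.1 FPKM in sim, 126 in rvWT, 14.99 in WT and 0.177 in null cells at 4 h, against 62.1 in sim, 110.0 in rvWT, 14.6 in WT and 0.155 in null cells at 0 h. The libraries thus carried Arkadia RNA as labelled at both times, with rvWT highest and null lowest. Its difference at 4 h was 0.05 ± 0.06 (SE, limma adjusted p = 0.467).

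Among the largest rises were known targets and inhibitors of the pathway. Ctgf, which encodes a matricellular protein, stood at 592 FPKM in sim, 654 in rvWT, 1782 in WT and 399 in null cells at 4 h, against 37.7 in sim, 40.2 in rvWT, 663 in WT and 52.9 in null cells at 0 h. WT cells held far more Ctgf than the other lines at both times, so the groups overlapped although each pair rose, by 3.07 ± 0.38 (SE, limma adjusted p = 0.000347). Pmepa1, a membrane protein that binds receptor SMADs and restrains the pathway, stood at 91.3 FPKM in sim, 87.2 in rvWT, 120.1 in WT and 41.4 in null cells at 4 h, against 16.6 in sim, 14.3 in rvWT, 23.3 in WT and 8.95 in null cells at 0 h. The groups did not overlap, and the pairs were so alike that its rise of 2.31 ± 0.08 (SE, limma adjusted p = 3.35e-07) had an SE smaller than that of any other gene among the 15 largest rises.

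**Figure D1:**
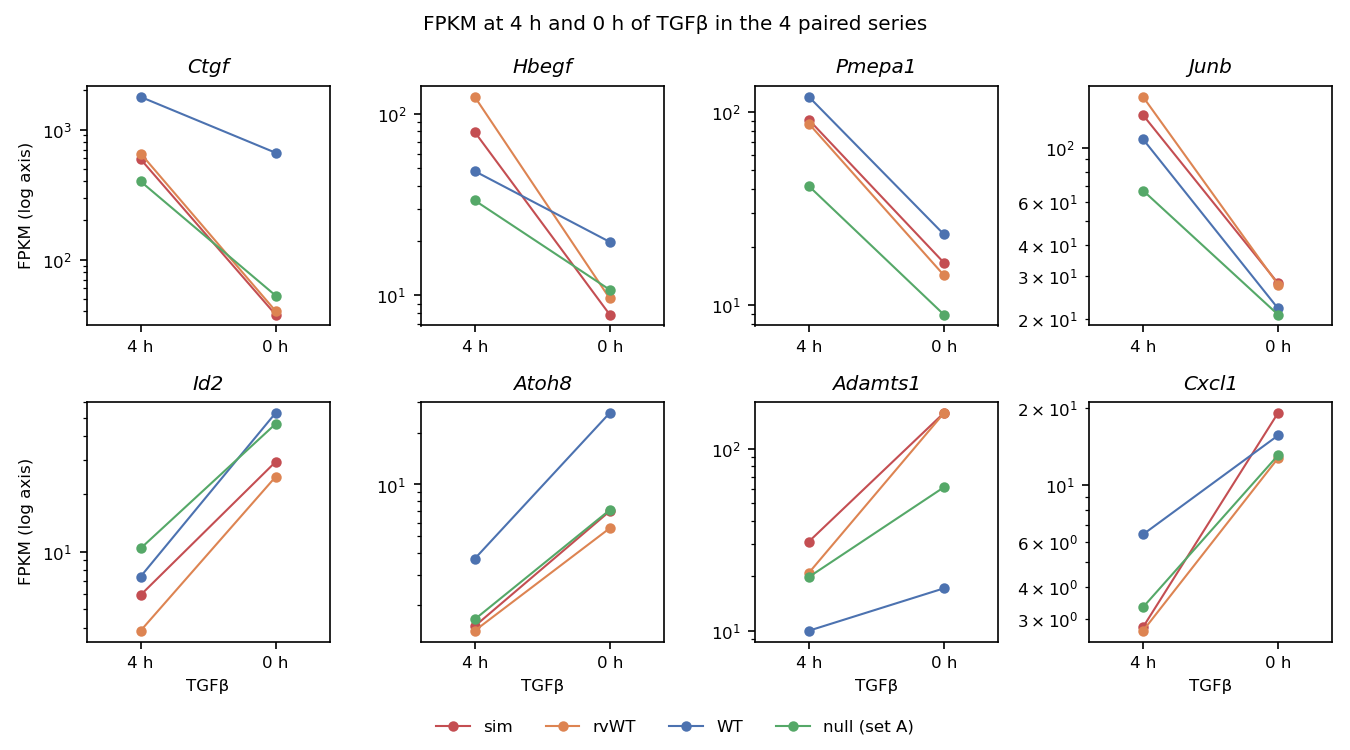
FPKM (log axis) of 8 genes (Ctgf, Hbegf, Pmepa1, Junb, Id2, Atoh8, Adamts1 and Cxcl1) at 4 h (left) and 0 h (right) of TGFβ, with 1 point per library and a line joining the 2 libraries of a pair. The upper genes were higher at 4 h in each pair and the lower genes lower; WT Ctgf reached 1782 FPKM at 4 h against 663 FPKM at 0 h, above all other lines.

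Hbegf, Pdgfb and Lif, 3 of the 15 largest rises, encode secreted ligands. Hbegf, which encodes an EGF receptor ligand, stood at 79.2 FPKM in sim, 124 in rvWT, 48.3 in WT and 33.3 in null cells at 4 h, against 7.84 in sim, 9.62 in rvWT, 19.7 in WT and 10.7 in null cells at 0 h. All 4 h libraries lay above all 0 h libraries, with the steepest pairs in set B, and the rise was 2.39 ± 0.38 (SE, limma adjusted p = 0.00133). Pdgfb, a chain of the growth factor PDGF, stood at 31.2 FPKM in sim, 45.7 in rvWT, 67.3 in WT and 31.8 in null cells at 4 h, against 4.13 in sim, 5.02 in rvWT, 6.07 in WT and 8.20 in null cells at 0 h. WT was its steepest pair, the groups did not overlap, and the rise was 2.64 ± 0.21 (SE, limma adjusted p = 4.39e-05). Lif, a cytokine of the interleukin-6 family, stood at 32.6 FPKM in sim, 42.8 in rvWT, 29.3 in WT and 15.6 in null cells at 4 h, against 3.45 in sim, 3.25 in rvWT, 11.4 in WT and 4.25 in null cells at 0 h. Again no 4 h library fell as low as a 0 h library, and Lif rose by 2.28 ± 0.28 (SE, limma adjusted p = 0.000368).

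Transcription factor genes in this group were Junb, Bhlhe40 and Egr2. Junb, a subunit of AP-1, stood at 136 FPKM in sim, 162 in rvWT, 109 in WT and 66.9 in null cells at 4 h, against 27.9 in sim, 27.6 in rvWT, 22.02 in WT and 20.8 in null cells at 0 h. The groups were far apart, and the rise was 2.12 ± 0.16 (SE, limma adjusted p = 3.25e-05). The helix-loop-helix repressor Bhlhe40 rose by 2.00 ± 0.13 (SE, limma adjusted p = 1.37e-05) with no overlap of its libraries. Egr2, a zinc-finger factor of the immediate early class, stood at 16.2 FPKM in sim, 20.01 in rvWT, 2.85 in WT and 3.37 in null cells at 4 h, against 0.275 in sim, 0.528 in rvWT, 0.664 in WT and 0.182 in null cells at 0 h. Its rise of 2.57 ± 0.47 (SE, limma adjusted p = 0.00286) was steep in sim and rvWT and shallower in WT and null cells, without overlap.

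The remaining large rises were of varied function. Olr1, a receptor for oxidized low-density lipoprotein, stood at 17.8 FPKM in sim, 12.7 in rvWT, 47.7 in WT and 48.7 in null cells at 4 h, against 1.10 in sim, 1.05 in rvWT, 10.7 in WT and 6.13 in null cells at 0 h. Its 4 h libraries were all above its 0 h libraries and it rose by 2.69 ± 0.30 (SE, limma adjusted p = 0.000211). The basal keratin gene Krt14 stood at 20.5 FPKM in sim, 45.3 in rvWT, 10.1 in WT and 5.34 in null cells at 4 h, against 2.33 in sim, 4.33 in rvWT, 3.23 in WT and 0.766 in null cells at 0 h. It rose by 2.25 ± 0.30 (SE, limma adjusted p = 0.000507) without overlap. Kctd11, an adaptor of a ubiquitin ligase, rose by 2.65 and Csdc2, an RNA-binding cold shock domain protein, by 2.26, both without overlap. Has2, which makes hyaluronan, rose by 2.24, with WT at 10.1 FPKM at 4 h under the 0 h level of 2 other lines. The matrix metalloproteinase gene Mmp9 stood at 28.6 FPKM in sim, 38.4 in rvWT, 0.306 in WT and 6.93 in null cells at 4 h, against 1.76 in sim, 2.15 in rvWT, 0.0385 in WT and 1.04 in null cells at 0 h. WT stayed under 1 FPKM at both times, the rise was 2.33 ± 0.51 (SE, limma adjusted p = 0.00669), and the call was lost without the sim series (adjusted p = 0.0537).

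Id2, an inhibitor of helix-loop-helix factors and a known target of BMP signalling, had the largest fall. It stood at 5.93 FPKM in sim, 3.86 in rvWT, 7.40 in WT and 10.4 in null cells at 4 h, against 29.4 in sim, 24.5 in rvWT, 52.8 in WT and 46.3 in null cells at 0 h. Every 4 h library was below every 0 h library, and Id2 fell, with a difference of -2.28 ± 0.34 (SE, limma adjusted p = 0.000893). Atoh8, a helix-loop-helix factor, stood at 1.51 FPKM in sim, 1.42 in rvWT, 3.71 in WT and 1.65 in null cells at 4 h, against 6.997 in sim, 5.57 in rvWT, 26.01 in WT and 7.11 in null cells at 0 h. All libraries at 4 h were lower than any at 0 h, and the difference was -1.82 ± 0.20 (SE, limma adjusted p = 0.000219). The chemokine gene Cxcl1 stood at 2.79 FPKM in sim, 2.70 in rvWT, 6.42 in WT and 3.34 in null cells at 4 h, against 19.1 in sim, 12.7 in rvWT, 15.6 in WT and 13.1 in null cells at 0 h. It fell in each pair without overlap, with a difference of -1.71 ± 0.23 (SE, limma adjusted p = 0.000501).

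Adamts1, a secreted protease of the extracellular matrix, stood at 30.9 FPKM in sim, 20.8 in rvWT, 9.998 in WT and 19.7 in null cells at 4 h, against 157 in sim, 156 in rvWT, 17.1 in WT and 61.3 in null cells at 0 h. Each pair fell, but WT started so low that the groups overlapped, and the difference was -1.86 ± 0.26 (SE, limma adjusted p = 0.000728). The same low WT level was seen for Gas1, a membrane protein linked to growth arrest, which stood at 53.8 FPKM in sim, 36.2 in rvWT, 0.692 in WT and 35.5 in null cells at 4 h, against 193 in sim, 166 in rvWT, 2.26 in WT and 76.3 in null cells at 0 h. Gas1 fell in each pair, with a difference of -1.47 ± 0.31 (SE, limma adjusted p = 0.00544). Txnip, an inhibitor of thioredoxin, stood at 9.55 FPKM in sim, 6.54 in rvWT, 3.57 in WT and 3.81 in null cells at 4 h, against 26.99 in sim, 27.3 in rvWT, 10.3 in WT and 8.57 in null cells at 0 h. Its pairs were all lower at 4 h, with a difference of -1.44 ± 0.25 (SE, limma adjusted p = 0.00193), while the groups overlapped. Other falls were Rasl11a, a small GTPase (-2.08), the caveolar protein Sdpr (-1.60), the vasodilator peptide Adm (-1.42), the orphan receptor Mrgprf (-1.39) and the GTPase-activating protein Arhgap20 (-1.50). Arhgap20 was near 0 in both WT libraries, and its call was lost without the rvWT series (adjusted p = 0.0538) or the sim series (adjusted p = 0.0568).

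Another 4 genes of the largest falls rest on the value of 1 transcript variant that was under 1 FPKM in some libraries. Nxt2, a factor of messenger RNA export, stood at 0.105 FPKM in sim, 0.000434 in rvWT, 0.115 in WT and 7.17 in null cells at 4 h, against 8.33 in sim, 3.42 in rvWT, 10.7 in WT and 8.09 in null cells at 0 h. Null cells kept their level while the other 3 lines fell below 1 FPKM, and the difference was -2.23 ± 0.45 (SE, limma adjusted p = 0.00415). Timeless, a protein of the replication fork, stood at 0.178 FPKM in sim, 0.0371 in rvWT, 9.26 in WT and 5.80 in null cells at 4 h, against 14.7 in sim, 8.54 in rvWT, 14.95 in WT and 11.2 in null cells at 0 h. The near-absence was limited to the 2 set B libraries at 4 h, and the difference was -2.06 ± 0.50 (SE, limma adjusted p = 0.0103). The call was lost without the rvWT series (adjusted p = 0.0585), without the sim series (adjusted p = 0.0694) and with the 8 libraries at 0 h and 4 h alone (adjusted p = 0.0559). Fam13c (-1.91) and Wash, a subunit of an actin-nucleating complex of endosomes (-1.76), fell as well. Whether the whole gene or 1 isoform moved was not tested.

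**Figure D2:**
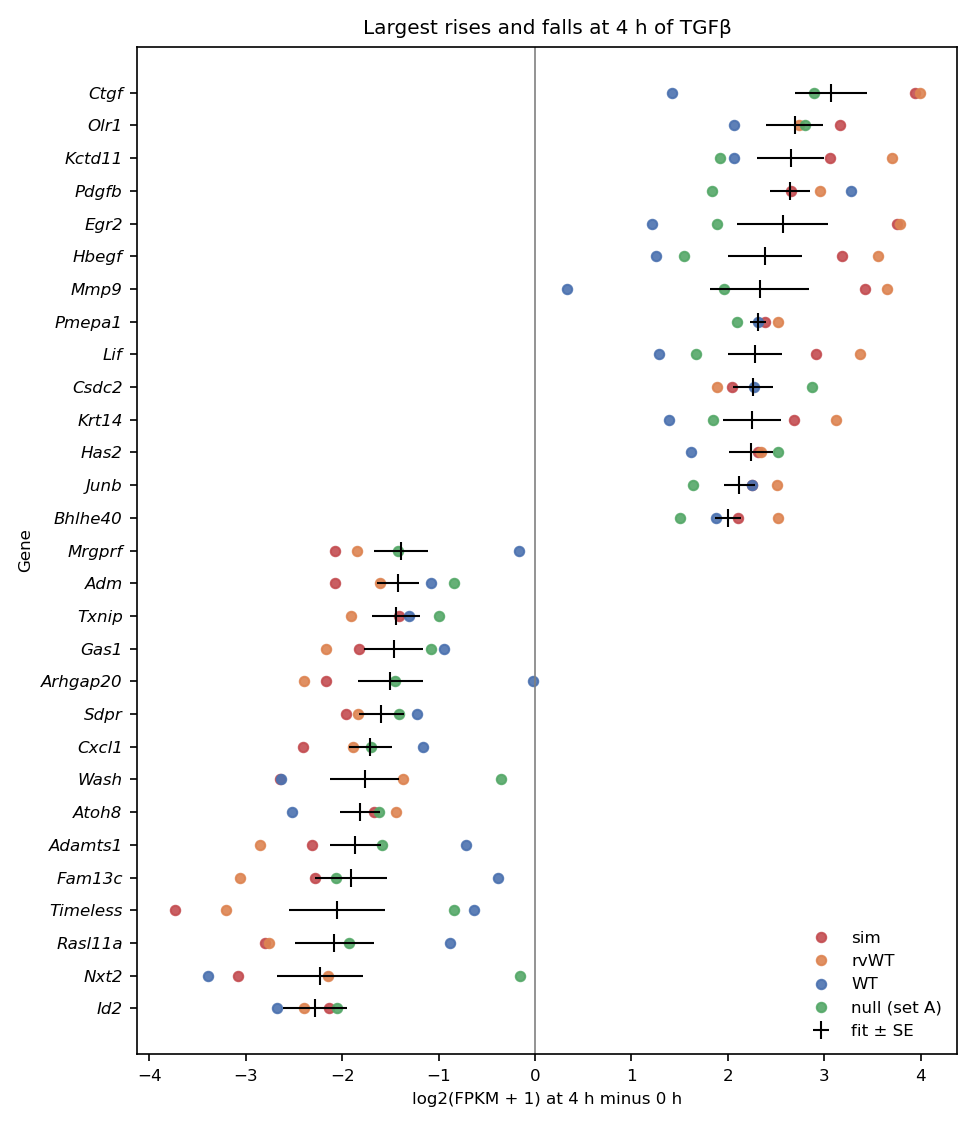
Difference of log2(FPKM + 1) at 4 h minus 0 h for 14 of the 15 largest rises and the 15 largest falls. Each dot is 1 pair and the black bar is the fitted difference ± SE; Pmepa1 and Junb have dots close together, while Mmp9 and Timeless have set B dots far from those of WT and null cells.

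The bases before the transcription start were read for the genes with the largest changes, so that short matches to the sites of SMADs or AP-1 can be set beside the values above. The sequences are from RefSeq (build GRCm38.p6, newer than the authors' mm9), 5′ to 3′ on the gene's strand, and a window was found for 20 of the 30 genes (6 rises and 14 falls). Capitals mark CAGACA (the SMAD-binding letters) or its reverse complement TGTCTG, the AP-1 site TGANTCA and the GC-rich SMAD element GGCGCC, both of which read the same on both strands. Of the rises, 4 with a match to CAGACA or TGANTCA are shown, and of the falls, 2 with a match to GGCGCC. Olr1 is shown at chr6:129507209-129507415, minus strand, Krt14 at chr11:100206031-100206150, minus strand, Kctd11 at chr11:69881090-69881209, minus strand, and Lif at chr11:4257318-4257437, plus strand. The falls Id2 and Gas1 are shown at chr12:25096223-25096342, minus strand, and chr13:60177536-60177655, minus strand.
Olr1: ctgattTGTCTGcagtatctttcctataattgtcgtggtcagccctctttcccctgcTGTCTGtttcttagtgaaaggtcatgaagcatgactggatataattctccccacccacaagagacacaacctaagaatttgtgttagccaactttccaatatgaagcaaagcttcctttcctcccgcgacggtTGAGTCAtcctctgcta
Krt14: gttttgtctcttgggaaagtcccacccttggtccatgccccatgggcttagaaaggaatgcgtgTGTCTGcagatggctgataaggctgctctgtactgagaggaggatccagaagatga
Kctd11: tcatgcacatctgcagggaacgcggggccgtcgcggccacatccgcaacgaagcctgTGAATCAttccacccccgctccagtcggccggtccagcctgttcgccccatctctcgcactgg
Lif: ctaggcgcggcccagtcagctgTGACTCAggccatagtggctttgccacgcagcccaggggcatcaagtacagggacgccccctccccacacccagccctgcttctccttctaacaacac
Id2: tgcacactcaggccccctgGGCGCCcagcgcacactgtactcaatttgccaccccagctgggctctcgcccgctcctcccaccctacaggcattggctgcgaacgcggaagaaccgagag
Gas1: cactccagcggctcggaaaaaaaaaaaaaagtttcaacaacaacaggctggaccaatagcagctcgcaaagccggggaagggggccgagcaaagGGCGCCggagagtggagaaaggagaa
Olr1 held 2 matches to CAGACA, at 244 and 193 bases before the start, and 1 to TGANTCA at 60 bases. Krt14 held CAGACA at 56 bases, Kctd11 held TGANTCA at 167 bases and Lif held TGANTCA at 228 bases. Among the falls, Id2 held GGCGCC at 231 bases and Gas1 at 26 bases, Fam13c held CAGACA at 27 bases, and Wash held 1 CCAGACA, which lay in the windows of both of its starts. Over the 250 bases before each start, TGANTCA was found in 16.7% of 96 windows of genes that rose by at least 1, in 6% of 50 windows of genes that fell by at least 1 and in 4.31% of 11050 windows of all genes tested. CAGACA was found in 19.8%, 8% and 12.7% of these windows, and the longer CCAGACA, which contains CAGACA, in 7.29%, 6% and 3.61%. The letters CACGTG (an E-box) were found in 8.33%, 8% and 8.36%, and GGCGCC in 14.6%, 20% and 17.5%. Both strands were searched, windows of 1 gene can overlap, and only 74 of the 120 and 38 of the 46 genes had a window.

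The gene lists were read against the shares over all genes tested, of which 11.9% rose and 27.1% fell with a median of -0.08. Counts are of the members that passed the filter on low values; other members were not analysed here. Of 28 early TGFβ targets listed, 24 were tested and each of these rose, with a median of 1.06. This list was compiled from known responses, so it is not independent of the treatment. Snai1, a repressor of epithelial genes, stood at 82.3 FPKM in sim, 93.4 in rvWT, 40.2 in WT and 33.01 in null cells at 4 h, against 21.3 in sim, 24.8 in rvWT, 9.17 in WT and 11.2 in null cells at 0 h. Snai1 rose by 1.82 ± 0.10 (SE, limma adjusted p = 4.89e-06) with no overlap. Smad7, the inhibitory SMAD that blocks the receptor, stood at 10.8 FPKM in sim, 11.96 in rvWT, 19.9 in WT and 12.5 in null cells at 4 h, against 4.05 in sim, 4.14 in rvWT, 8.21 in WT and 5.89 in null cells at 0 h. Its libraries at 4 h lay above those at 0 h of their own pair and of every other pair, by 1.15 ± 0.07 (SE, limma adjusted p = 1.11e-05). Ldlrad4, which like Pmepa1 binds receptor SMADs, rose by 1.59 ± 0.09 (SE, limma adjusted p = 5.90e-06).

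Of the 32 measured ligands, receptors and SMADs of the family, 11 rose and 9 fell, with a median of 0.10. With median-ratio scaling 12 rose and 5 fell, and 13 passed without the sim series in place of 20. Among ligands, Inhba, the activin subunit, rose by 1.61 and Tgfb1 by 1.37, while Inhbb fell (-0.59). Latent TGFβ binding proteins rose in the cases of Ltbp2 (1.67) and Ltbp3 (0.63), and Lrrc32, which tethers latent TGFβ, rose by 0.90. Among receptors, Tgfbr2 stood at 19.8 FPKM in sim, 18.3 in rvWT, 22.5 in WT and 23.7 in null cells at 4 h, against 40.6 in sim, 32.7 in rvWT, 30.97 in WT and 35.1 in null cells at 0 h. Each library at 4 h was below every library at 0 h, and Tgfbr2 fell, with a difference of -0.69 ± 0.09 (SE, limma adjusted p = 0.000394). The co-receptor Tgfbr3 fell too (-0.96). Receptors for BMPs and activins went both ways, with Acvr1 (0.74) and Bmpr2 (0.73) higher and Bmpr1a (-0.31) and Acvr2a (-0.44) lower. The SMADs that carry the TGFβ signal did not pass: Smad2 differed by -0.05, Smad3 by -0.05 and Smad4 by -0.07. Ski, the repressor that Arkadia is known to degrade, rose by 0.44.

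Of 17 measured BMP and Id genes, 7 fell and 3 rose, with a median of -0.28. Id3 (-1.35), Id4 (-0.74) and the inhibitory SMAD gene Smad6 (-0.43) fell beside Id2, and Id1 differed by -0.54 without passing. The ligand gene Bmp4 stood at 28.1 FPKM in sim, 15.5 in rvWT, 5.84 in WT and 19.8 in null cells at 4 h, against 75.5 in sim, 53.9 in rvWT, 17.04 in WT and 29.4 in null cells at 0 h. It was lower at 4 h in each pair, with a difference of -1.25 ± 0.15 (SE, limma adjusted p = 0.000333) and overlap between lines. The members that rose were the transcriptional repressor Hes1, also counted among the Notch genes (0.75), the homeobox gene Dlx2 (0.61) and the BMP antagonist Nog (0.60).

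Matrix, adhesion and contractile genes rose more often than they fell. Of 43 measured extracellular matrix genes, 24 rose and 4 fell (median 0.28), among them Thbs1 (1.41), a protein that activates latent TGFβ, the matricellular genes Cyr61 (1.30) and Wisp1 (1.24) and the collagen Col5a1 (0.77). Of 23 collagen-modifying enzymes and matrix synthases, 11 rose and 2 fell (12 and 1 with median-ratio scaling), with the lysyl hydroxylase Plod2 at 0.71 and the lysyl oxidase Loxl2 at 0.57. Without the sim series 8 of these enzymes passed in place of 13. Of 38 contractile and actin genes, 25 rose and none fell (median 0.30). The LIM proteins Fhl2 (0.93) and Pdlim7 (0.92) and the actin crosslinker Actn1 (0.59) are examples. Of 24 focal adhesion genes, 11 rose and 1 fell. Itga5, the α chain of the fibronectin receptor, stood at 168 FPKM in sim, 223 in rvWT, 93.1 in WT and 119 in null cells at 4 h, against 53.7 in sim, 52.6 in rvWT, 36.3 in WT and 47.7 in null cells at 0 h. Its 4 h libraries were all higher, and the rise was 1.56 ± 0.13 (SE, limma adjusted p = 6.02e-05). The integrin chains Itgb3 (1.23) and Itgb5 (1.04) rose as well.

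**Figure D3:**
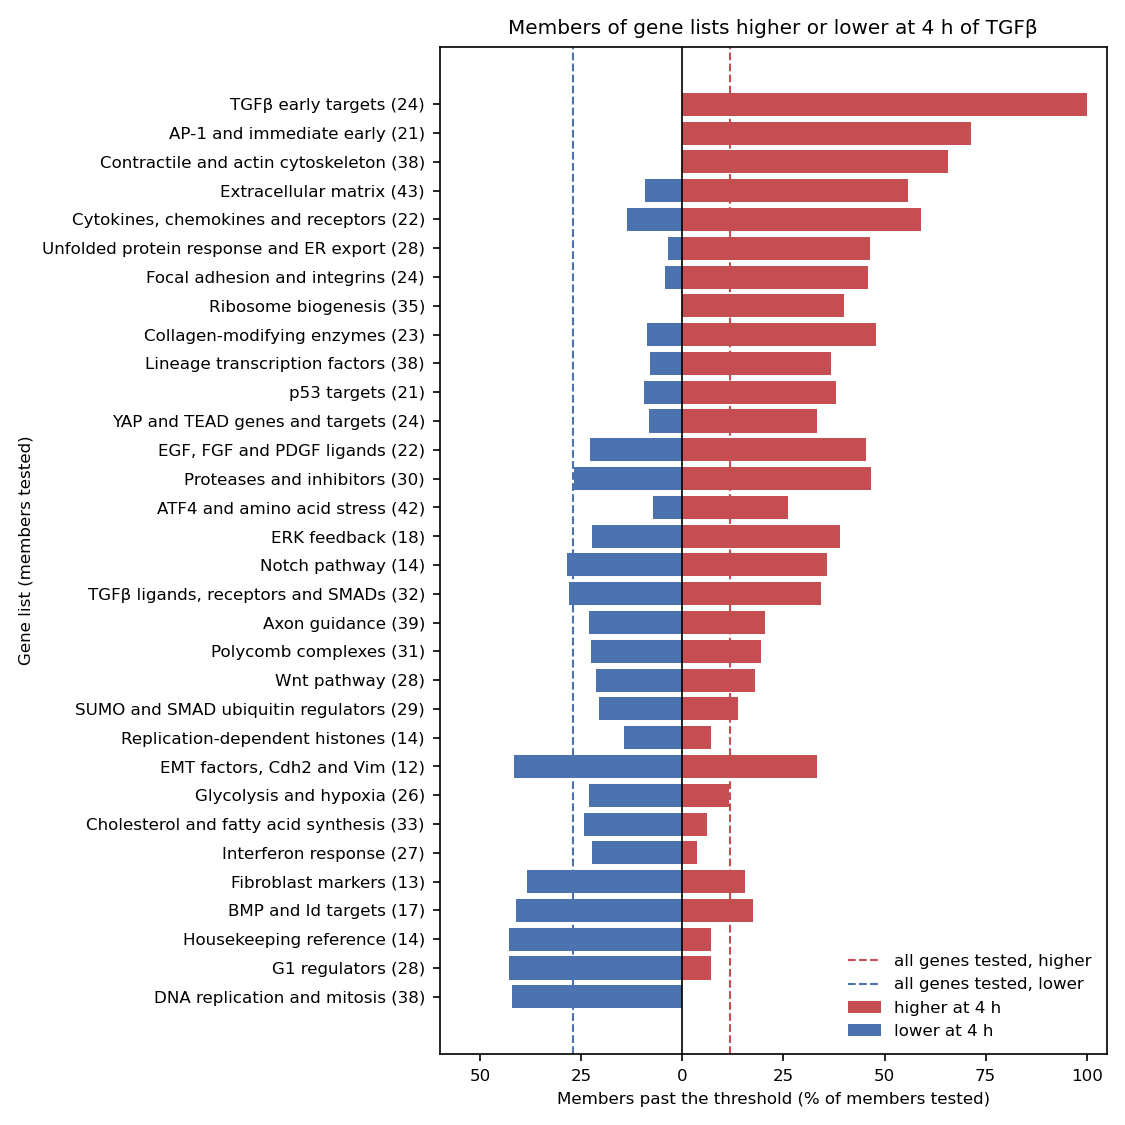
Share of the measured members of each gene list (10 or more members; number in brackets) that were higher (red, right) or lower (blue, left) at 4 h, in % of members tested. Dashed lines give the shares over all genes tested, 11.9% higher and 27.1% lower; the early TGFβ targets are at 100% higher and DNA replication and mitosis genes have no member higher.

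Immediate early and AP-1 genes rose in 15 of 21 cases with none falling (median 0.87). Ier2 rose by 1.28, Fosl2, an AP-1 subunit, by 0.41 and Ier5 by 0.45. Feedback genes of the ERK kinases were split, with 7 of 18 higher and 4 lower (8 and 2 with quantile normalization). The EGF receptor inhibitor Errfi1 rose (1.23), whereas Spry1 (-0.71) and Spry2 (-0.69) fell. Of 22 ligands of the EGF, FGF and PDGF families, 10 rose and 5 fell (10 and 3 with quantile normalization), with Pdgfa at 0.86 and the KIT ligand Kitl at -1.23. The ERK list lost calls without the rvWT or the sim series (7 of 18 in both cases, in place of 11), and so did the ligand list (9 in place of 15). Of 12 genes of epithelial-mesenchymal transition, which are transcription factors apart from the cadherin gene Cdh2 and Vim, 4 rose and 5 fell: Hmga2 (0.97) rose with Snai1, while Snai2 (-0.72), Twist1 (-0.36) and Cdh2 (-0.27) fell. That list had 5 calls in place of 9 without the sim series.

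Of 22 measured cytokines, chemokines and their receptors, 13 rose and 3 fell (median 0.998). Ccl2, a chemokine that draws monocytes, stood at 738 FPKM in sim, 729 in rvWT, 443 in WT and 443 in null cells at 4 h, against 137 in sim, 161 in rvWT, 126 in WT and 169 in null cells at 0 h. Every library at 4 h exceeded every one at 0 h, and Ccl2 rose by 1.97 ± 0.15 (SE, limma adjusted p = 4.29e-05). Cx3cl1 (1.66), Ccl17 (1.57) and Cxcl16 (1.52) rose too, in contrast to Cxcl1. The receptor genes Il1rl1 (1.57), Tnfrsf11b (1.28), Tnfrsf12a (1.27) and Il1r1 (0.31) were among the risers, and the receptor gene Il6st (-0.44) fell. Of 30 proteases and inhibitors, 14 rose and 8 fell (15 and 5 with median-ratio scaling). Mmp2 (0.80) and Mmp14 (0.47), which degrade matrix, rose and Adamts9 fell (-1.04); 14 members passed without the rvWT series and 12 without the sim series, in place of 22.

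DNA replication and mitosis genes fell where they passed, with small differences. Of 38 measured, 16 fell and none rose (median -0.21). The spindle genes Tpx2 (-0.68) and Kif11 (-0.51) and the cyclin Ccna2 (-0.47) are examples. This list passed in 8 cases with median-ratio scaling, in 4 without the rvWT series, in 2 without the sim series and in 26 without the WT series. Of 28 G1 regulators, 12 fell and 2 rose (8 fell and 4 rose with quantile normalization). Cdk inhibitor genes were on both sides, with Cdkn2c (-0.86), Cdkn1b (-0.67) and Cdkn2d (-0.66) lower and Cdkn1a (0.31) higher, and the growth-promoting factor gene Myc rose by 1.12. Of 35 ribosome biogenesis genes, 14 rose and none fell (median 0.19), with the pre-ribosomal RNA factors Rrp9 (0.56) and Rrp12 (0.47) as examples. With median-ratio scaling 21 of them rose, whereas 1 passed without the rvWT series and 2 without the sim series.

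Among secretion and stress genes, 13 of 28 genes of the unfolded protein response and ER export rose and 1 fell (9 passed without the sim series). Creb3l1, a membrane-bound factor that raises collagen secretion genes, stood at 82.1 FPKM in sim, 102 in rvWT, 43.9 in WT and 40.6 in null cells at 4 h, against 42.2 in sim, 48.6 in rvWT, 16.7 in WT and 18.8 in null cells at 0 h. It rose in each pair, by 1.11 ± 0.07 (SE, limma adjusted p = 1.20e-05), although set B cells at 0 h were at the 4 h level of set A. Creb3l2 (0.93) and Xbp1 (0.57) rose. Of 42 ATF4 and amino acid genes, 11 rose and 3 fell (7 passed without the rvWT series and 7 without the sim series), with Atf4 itself at 0.36, Nupr1 at 0.88 and the serine synthesis gene Psat1 at -0.34. Of 21 p53 targets, 8 rose and 2 fell (10 and 1 with median-ratio scaling; 6 passed without rvWT or without sim), among them the kinase Plk2 (1.05) and the death receptor Fas (0.65).

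Metabolic and interferon genes had fewer or mixed calls. Of 26 glycolysis and hypoxia genes, 3 rose and 6 fell (5 and 5 with median-ratio scaling), and the risers included the hexokinase Hk2 (1.21) and the angiogenic factor Vegfa (1.39); 5 passed without the rvWT series. Of 33 cholesterol and fatty acid genes, 2 rose and 8 fell (3 and 5 with median-ratio scaling), with Insig2, a sterol sensor partner, at -0.63 and the desaturase Scd1 at -0.48 (6 passed without rvWT and 5 without sim). Of 27 interferon genes, 6 fell and 1 rose (3 fell and 2 rose with median-ratio scaling; 3 passed without rvWT and 2 without sim). The riser was the chemokine Cxcl10, at 33.6 FPKM in sim, 38.8 in rvWT, 11.4 in WT and 7.21 in null cells at 4 h, against 7.35 in sim, 5.87 in rvWT, 4.19 in WT and 2.93 in null cells at 0 h. Each pair rose, the steepest in set B, by 1.75 ± 0.23 (SE, limma adjusted p = 0.000448). Ifit2 (-0.72) and Gbp2 (-0.50) were among the members that fell.

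Other lists leaned to different sides. Of 24 YAP and TEAD genes and targets, 8 rose and 2 fell (11 and 1 with both scalings), the risers including the kinase Nuak2 (1.30). Of 14 Notch genes, 5 rose and 4 fell, with the ligand Jag1 at 1.62 and Dtx4 at -0.51; 6 passed without the sim series. Of 28 Wnt genes, 5 rose and 6 fell, with the receptor Ror2 at 0.85 and the secreted antagonist Sfrp2 at -0.88; 7 passed without the rvWT series and 6 without the sim series. Of 39 axon guidance genes, 8 rose and 9 fell, and semaphorins were on both sides: Sema3a (-0.90), Sema3e (-0.74) and Sema3c (-0.64) fell, and Sema7a (1.46), Sema4c (0.36) and Sema4d (0.26) rose (10 of the list passed without rvWT or without sim). Of 38 lineage transcription factors, 14 rose and 3 fell, with Foxf2 at 0.99 and Sox11 at 0.86.

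Polycomb and SUMO genes, which the study links to Arkadia, had calls in both directions. Of 31 Polycomb genes, 6 rose and 7 fell, and of 29 SUMO and SMAD ubiquitin regulators 4 rose and 6 fell. The chromobox genes Cbx7 (-0.56) and Cbx6 (-0.55) fell, whereas the ubiquitin ligase gene Smurf1 rose (0.93). The SUMO list had 6 higher and 3 lower with median-ratio scaling. Polycomb calls numbered 7 without rvWT or without sim, and SUMO list calls 3 without rvWT and 4 without sim. Of 14 replication-dependent histones, 1 rose and 2 fell (5 and 2 with quantile normalization, 2 and 2 with median-ratio scaling), although poly(A) selection captures these RNAs poorly. Of 14 housekeeping genes, 1 rose (Actb, 0.50) and 6 fell, which was 1 and 1 with median-ratio scaling; 2 passed without the rvWT series and 4 without any other 1 of the series, in place of 7.

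Markers of cell types also moved, and fewer cells of a type cannot be told apart from less RNA per cell in bulk samples. Of 13 fibroblast markers, 2 rose and 5 fell (4 passed without rvWT and 3 without sim), with the collagen Col1a1 at 0.40 and the collagen receptor Ddr2 at -0.34. Epithelial keratins moved in both directions: Krt8 rose by 1.35 beside Krt14, and Krt19 fell (-0.65). Of 4 neural markers, Ncam1 (0.92) and Tubb3 (0.85) rose, while Map2 (-0.30) and Nes (0.15) did not pass. Of the endothelial markers Flt1 (0.55) and Kdr (0.29) rose and Tek (-0.59) fell, with no endothelial call without rvWT or without sim. None of 3 haematopoietic markers passed; Lyz2, at -0.17, had the smallest p. Of 5 muscle, cartilage, bone and fat markers, 1 rose (Acta1, 0.62) and 1 fell (Lpl, -0.71), and 2 rose and 1 fell with both scalings. The part of these markers in the other results was not tested.

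The levels at 1 h and 16 h place the 4 h values in time, and they share the 0 h libraries, so they are given as values only. Junb stood at 167 FPKM in sim, 194 in rvWT, 191 in WT and 89.5 in null cells at 1 h, above its 4 h level in every line. Smad7 and Snai1 were likewise higher at 1 h than at 4 h in each of the 4 lines. Ldlrad4, in contrast, stood at 2.82 to 4.62 FPKM at 1 h in these lines and at 9.15 to 16.6 FPKM at 4 h. Mmp9 stood at 3.11 FPKM in sim, 3.41 in rvWT, 0.0657 in WT and 1.17 in null cells at 1 h, and reached 0.995 in WT and 23.7 in null cells at 16 h.

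Atoh8 and Id2, both lower at 4 h than at 0 h, had other levels at 1 h. Atoh8 stood at 36.4 FPKM in sim, 32.2 in rvWT, 48.7 in WT and 24.4 in null cells at 1 h, above both its 4 h and its 0 h level in every line. Id2 stood at 101 FPKM in sim, 83.97 in rvWT and 101 in null cells at 1 h, above the 0 h level of each, and at 41.3 FPKM in WT cells, under its 0 h level. Adamts1 and Cxcl1 behaved differently, since both were already under the 0 h level at 1 h in each line. At 16 h Id2 was at 15.9 FPKM in WT and 8.30 in null cells.

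**Figure D4:**
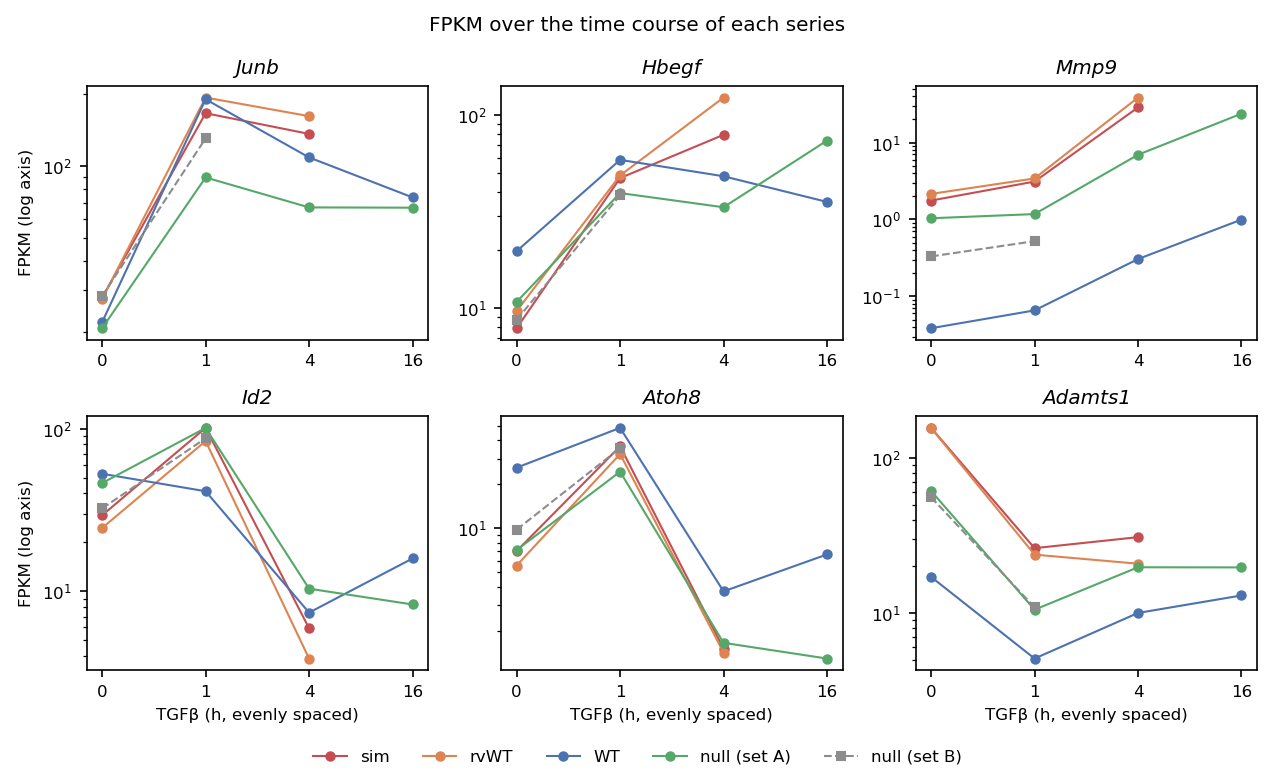
FPKM (log axis) of 6 genes at 0, 1, 4 and 16 h of TGFβ, evenly spaced, with 1 library per point; sim, rvWT and null of set B have no 16 h library. Atoh8 peaks at 1 h and lies between 1.42 and 3.71 FPKM at 4 h, and Junb at 1 h exceeds its 4 h level in every line.

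The differences were larger in the pairs of set B. Across all genes tested, the standard deviation of the difference was 0.58 in sim, 0.65 in rvWT, 0.51 in WT and 0.50 in null cells. Over all genes tested, 245 rose by at least 1 in sim, 259 in rvWT, 187 in WT and 149 in null cells. Falls of at least 1 numbered 179 in sim, 315 in rvWT, 109 in WT and 89 in null cells. Of the 120 genes that rose by at least 1 in the fit, 101 had a larger mean difference in set B than in set A. Their median size was 1.72 in set B and 1.13 in set A. Of the 46 that fell by at least 1, 42 had a larger fall in set B (median size 1.68 and 0.96). These 120 and 46 genes were picked by the fit over all pairs, so their sizes are not independent of that choice. The share over all genes tested was not computed. Most genes called in set B alone moved the same way in both set A pairs. Of 1392 higher in set B, 74.3% were higher in both set A pairs, against 22.2% of all genes. Their median in set A was 0.25. Of 2842 lower in set B, 81.6% were lower in both set A pairs, against 47.2% of all genes. Set A alone had few calls. Of 13 higher in set A, 13 were higher in both set B pairs, against 28.1% of all genes. Of 3 lower in set A, 1 was lower in both set B pairs, against 51.3% of all genes. Across genes, which are not independent replicates, the mean differences of the sets had a Pearson r of 0.477 and a Spearman correlation of 0.651.

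**Figure D5:**
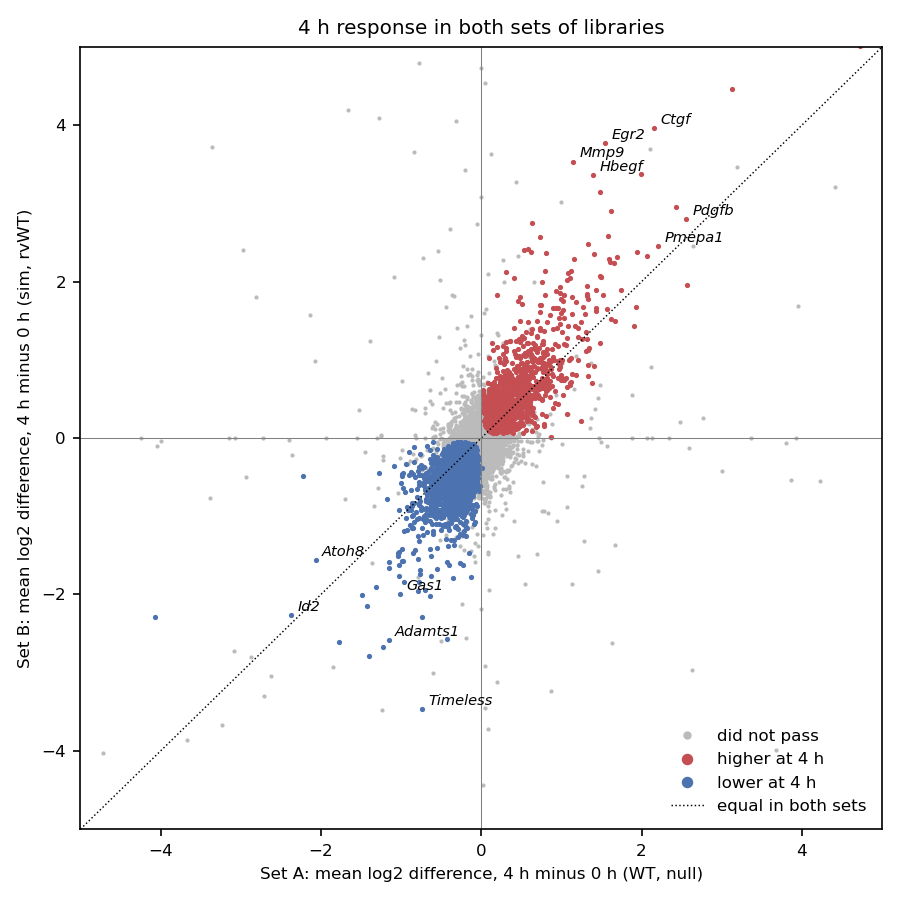
Mean difference of log2(FPKM + 1) at 4 h minus 0 h in set B (sim and rvWT, vertical) and in set A (WT and null, horizontal), with 1 dot per gene and colour by the call over all pairs; 9 genes lie outside the axes. Ctgf, Egr2 and Mmp9 lie above the dotted line of equal differences and Pmepa1 lies near it.

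Whether the 4 h response depended on Arkadia or on the line was tested with 1 added term at 4 h. Between lines that carry Arkadia (sim, rvWT and WT) and null cells no gene passed in limma (0% of genes tested). At an unadjusted limma p below 0.05 there were 1097 genes (9.93% of genes tested). With the 8 libraries at 0 h and 4 h alone 7 passed, with a pseudocount of 0.1 6 passed and with a minimum of 5 FPKM 2 passed. The smallest p belonged to Mir3061, Sept7 and Timp1, of which the first is listed at 0 in 5 of the 8 libraries and Sept7 at 0 in 1. Timp1, an inhibitor of metalloproteinases, stood at 188 FPKM in sim, 258 in rvWT, 305 in WT and 82.8 in null cells at 4 h, against 73.95 in sim, 69.7 in rvWT, 99.8 in WT and 91.3 in null cells at 0 h. It was higher at 4 h in the lines with Arkadia and not in null cells, and the difference between the responses was 1.65 ± 0.22 (SE, limma adjusted p = 0.0904). At 16 h Timp1 stood at 192 FPKM in WT and 201 FPKM in null cells.

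Between sim and rvWT cells 2 genes passed (0.0181%), with 692 (6.265% of genes tested) at an unadjusted limma p below 0.05. Wdr61, a subunit of the PAF complex of transcription, stood at 41.6 FPKM in sim, 5.44 in rvWT, 37.1 in WT and 32.3 in null cells at 4 h, against 18.2 in sim, 41.2 in rvWT, 43.3 in WT and 44.1 in null cells at 0 h. Sim and rvWT cells moved in opposite directions, and the difference was 3.82. The value is that of 1 transcript variant, and whether the whole gene or 1 isoform moved was not tested. At 1 h Wdr61 stood at 20.2 FPKM in sim and 42.8 in rvWT cells, so sim was low before 4 h as well. The other gene was the small nucleolar RNA gene Snora34, listed at 0 in rvWT cells at 4 h and in sim cells at 0 h. Between WT and the other 3 lines, all Ark-/-, 1 gene passed (0.00905%), with 546 (4.94%) at an unadjusted limma p below 0.05. It was a transcript variant of Ttpal, a lipid transfer protein, which stood at 0.306 FPKM in WT, 6.43 in sim, 6.10 in rvWT and 6.71 in null cells at 4 h, against 7.53 in WT, 7.22 in sim, 7.26 in rvWT and 7.76 in null cells at 0 h. Only the WT library at 4 h was low, and the difference was -2.48 ± 0.09 (SE, limma adjusted p = 1.84e-06). Each of these comparisons rests on 1 library per line at 4 h, so a line and its library cannot be told apart.

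Between set B and set A 18 genes passed (0.163%), 7 with a more positive (0.0634%) and 11 with a more negative difference (0.0996%) in set B. An unadjusted limma p below 0.05 was met by 2081 genes (18.8% of genes tested). This comparison was added after the values were seen, and no gene passed with the 8 libraries at 0 h and 4 h alone. Dusp5, a phosphatase of ERK, stood at 31.8 FPKM in sim, 54.8 in rvWT, 18.2 in WT and 22.7 in null cells at 4 h, against 5.01 in sim, 5.69 in rvWT, 11.8 in WT and 13.8 in null cells at 0 h. Each pair rose, more steeply in set B, and the difference between sets was 1.77 ± 0.27 (SE, limma adjusted p = 0.0497). The immediate early factor Egr3 (1.68), the retinoic acid synthesis gene Aldh1a3 (1.68), the secreted phosphoprotein Spp1 (1.47) and the stress factor Atf3 (0.90) had more positive differences in set B. Spp1 stood at 28.3 FPKM in sim, 66.7 in rvWT, 96.5 in WT and 54.6 in null cells at 4 h, against 13.5 in sim, 26.7 in rvWT, 117 in WT and 65.01 in null cells at 0 h. Spp1 was thus higher at 4 h in the set B pairs and lower in the set A pairs. More negative differences in set B were those of Timeless (-2.65), the R-spondin receptor gene Lgr5 (-1.43), Crbn (-1.02), Sertad3 (-0.97) and the small GTPase Rhou (-0.96). Lgr5 was almost absent in WT cells (0.0151 FPKM at 0 h and 0.00737 at 4 h), so it had little room to fall there. Aldh1a3 was at most 0.561 FPKM in the set A libraries at 0 h and 4 h, where log2(FPKM + 1) understates a change. Timeless rests on 1 transcript variant, as given above.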

How the data were processed

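Poly(A)-selected, stranded libraries were sequenced from MEFs, and the authors deposited 1 table of FPKM values for 12100 genes and 16 libraries. The submitters' processing notes name CASAVA 1.8.2, STAR 2.3.0e, SAMtools, Cufflinks 2.2.1 and genome build mm9; the sources used here give no role or order of the tools. Read depth is unknown, and precision comes from the scatter of the libraries alone. FPKM summed to 397019 in the lowest library and 481970 in the highest. Each gene has 1 transcript accession, so a value can be that of 1 isoform.

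Values were taken as log2(FPKM + 1), and 11045 genes that averaged 1 FPKM or more in the 16 libraries were tested. The test was limma-trend (limma 3.58.1, statmod 1.5.0, R 4.3.3) with the 5 time series as a block and time as a factor, giving 8 residual degrees of freedom. P-values were adjusted by Benjamini-Hochberg over all genes tested, with a threshold of 0.05. The pairing comes from the labels, since each pair is 1 line in 1 set. Comparisons between lines added 1 term at 4 h. The code was checked on simulated data.

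Named genes were Rnf111, 15 rises and 15 falls of greatest size, taken from passing genes with 1 sign in all 4 pairs and a mean of 5 FPKM or more at 4 h or 0 h, whichever was higher (small RNAs left out), up to 4 members with the smallest p of each of 37 gene lists, and up to 5 genes each way of each comparison between lines (the 3 with the smallest p where none passed). A few genes that this rule names are not reported here. Other list members were named after their values were seen. The comparison, lists and rule were chosen with earlier results of these data known. Alternatives were other pseudocounts, filters, scalings, variances and thresholds, each set alone, the 8 libraries alone, no block, and each series left out. The comparison of the sets and the removal of genes that drop out were chosen after seeing the data.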

Additional observations from a re-analysis of the deposited data

Results flagged for a closer look

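In 9 of 164 named genes 1 of the 4 pairs stood apart from the other 3 by Dixon's criterion, which chance meets in about 1 of 20 groups. The WT pair stood apart for Sfrp2, with a difference of -0.441 against -1.04 to -1.02 in the others, for Col1a1 (0.666 against 0.285 to 0.337), for Pdgfrb (-0.0151 against 0.735 to 0.797), for Kdr (0.647 against 0.152 to 0.214) and for Tubb3 (0.658 against 0.916 to 0.930). The null pair stood apart for Cdkn2d (-0.828 against -0.625 to -0.594), for the ER export gene Sec24d (0.148 against 0.429 to 0.470) and for Ncam1 (1.37 against 0.693 to 0.804). The sim pair stood apart for the housekeeping gene Gusb (-0.165 against -0.279 to -0.261). Pdgfrb, a receptor for PDGF, stood at 45.5 FPKM in sim, 43.8 in rvWT, 7.97 in WT and 21.03 in null cells at 4 h, against 25.8 in sim, 25.9 in rvWT, 8.07 in WT and 12.1 in null cells at 0 h. It was thus level in WT cells and higher at 4 h in the other 3 lines.

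Some differences at 4 h passed a limma test between groups of libraries, of which those of Ttpal, Wdr61 and Snora34 rest on 1 library at 4 h on a side, so a line and its library cannot be told apart. For WT against the other lines this was Ttpal (-2.48). For sim against rvWT it was Wdr61 (3.82) and Snora34 (10.3), of which Snora34 is listed at 0 in some libraries. For set B against set A it was Dusp5 (1.77), Egr3 (1.68), Aldh1a3 (1.68), Spp1 (1.47), Atf3 (0.901), Timeless (-2.65), Lgr5 (-1.43), Crbn (-1.02), Sertad3 (-0.975) and Rhou (-0.963). Of these, Lgr5 was almost absent in WT cells and Aldh1a3 was low in set A. Retrovirus, library set and Arkadia cannot be told apart in the comparison of the sets.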

How the results depend on the processing

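The 4307 calls became 2289 with the 8 libraries at 0 h and 4 h alone (2201 shared), 1966 at an adjusted p below 0.01, 16 in set A alone and 142 with no replicate block, where differences between lines enter the spread; leaving out 1 series gave 2031 to 4287. Under the other alternatives the count ran from 3257 (minimum of 5 FPKM) to 4489 (no filter). WT against the other lines gave 3 calls with a pseudocount of 0.1 and 16 with the 8 libraries, in place of 1. Arkadia-carrying lines against null gave 6 with a pseudocount of 0.1, 2 with a minimum of 5 FPKM and 7 with the 8 libraries, in place of 0. Sim against rvWT gave 1 with a pseudocount of 5 and 1 without small RNAs, in place of 2. Set B against set A gave 33 with a pseudocount of 5, 10 with a minimum of 5 FPKM, 9 with quantile normalization and 0 with the 8 libraries, in place of 18. The cause was not tested.

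Of the 30 largest changes, all kept their call and direction under both scalings, both pseudocounts and without the WT or the null series, while 28 lost the call in set A alone and 16 with no replicate block. Over all named genes, 2807 values kept direction and call, 360 lost and 33 gained a call, and 8 changed sign, none of which had passed except Kdr. These were Krt7 (-0.126) and Kdr (-0.0113) with no replicate block, Cd68 (0.000773 with quantile normalization), Cd14 (0.000243 with median-ratio scaling, 0.0397 with quantile normalization, 0.0849 in set A alone, range -0.162 to 0.0255 with 1 series left out, the sign changing without rvWT) and Spp1 (-0.263 in set A alone). Of the list counts, 548 stayed within 1.5 times and 155 did not. Without read counts, the precision of low FPKM values is unknown.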
